A study of Homo sapiens with 12 samples.

Results

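Of the 1335 chromosome 13 rows in the deposited table of 58735 genes, 225 reached 1 FPKM (a read level corrected for the length of the gene and the size of the library) in at least 3 of the 12 libraries. Leaving out 2 of these, which the selection rule set aside, gave the 223 genes described here, ordered by their start along the chromosome. They were 173 protein-coding genes, 18 pseudogenes and 32 other non-coding genes, and 108 of them lay on the plus strand. Just inside the threshold, 3 libraries reached 1.01 FPKM for EEF1A1P3 and 1.02 FPKM for AL354696.1 and for NEK3; just outside it, they reached 0.992 FPKM for LACC1, 0.988 FPKM for COX17P1 and 0.9797 FPKM for CCDC122. The RNA came from the established cell line SEM, which was derived from acute lymphoblastic leukaemia of B cell precursors and carries a KMT2A-AFF1 fusion. The 4 groups of 3 libraries each were IKZF1 knockout (KO) cells given 1 µM cytarabine (AraC) for 16 h, untreated KO cells, wild-type (WT) cells given the same AraC treatment, and untreated WT cells. AraC is a cytidine analogue that is built into DNA and stalls replication, and the title of the series concerns resistance to it when IKZF1 is lost. The labels describe 1 KO line, so what differs between the lines and what comes from the genotype cannot be told apart, and they do not say that the replicates were separate cultures, so p-values cover only the spread between libraries, and that may be technical. Chromosome 13 was chosen because its genes had been seen to be lower in the KO libraries. The KO against WT values below are therefore a description, and the AraC responses are the values that this choice did not use.

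Ikaros, the product of IKZF1, is a zinc finger protein that directs lymphoid development and binds DNA at sites built on the core TGGGAA. Chromosome 13 carries RB1, the tumour suppressor that holds E2F transcription factors in check, BRCA2, which acts in the repair of broken DNA by homologous recombination, and FOXO1, a transcription factor needed at several steps of B cell development. Its 13q14 band, which holds RB1 and the non-coding gene DLEU2, is often lost in B cell leukaemias. DLEU2 and MIR17HG are host transcripts of microRNAs, short RNAs that pair with messenger RNAs through a seed and lower their output.

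The mature microRNAs of the 2 host transcripts are shown because both hosts fell with AraC in WT cells, while the rows of the microRNA genes themselves were listed at 0 in every library. Seeds (bases 2 to 8) are in capitals, and the sequences are those of RefSeq on GRCh38.p14. Both microRNAs of DLEU2, at chr13:50049167-50049188 and chr13:50049027-50049048 on the minus strand, share 1 seed.
hsa-miR-15a-5p: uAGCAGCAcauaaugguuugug
hsa-miR-16-5p: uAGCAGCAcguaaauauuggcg
The 6 microRNAs of MIR17HG lie on the plus strand between positions 91350618 and 91351382 of chromosome 13 and fall into seed groups, with miR-17 and miR-20a sharing 1 seed and miR-19a and miR-19b another.
hsa-miR-17-5p: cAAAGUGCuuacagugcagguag
hsa-miR-20a-5p: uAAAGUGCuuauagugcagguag
hsa-miR-18a-5p: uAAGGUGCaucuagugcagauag
hsa-miR-19a-3p: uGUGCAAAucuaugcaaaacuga
hsa-miR-19b-3p: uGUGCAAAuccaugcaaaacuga
hsa-miR-92a-3p: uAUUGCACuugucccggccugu

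Promoter windows are shown for 3 members that differed in direction between KO and WT: ELF1 (an ETS family transcription factor of lymphoid cells, lower in KO), WASF3 (a regulator of actin assembly, higher in KO) and PAN3 (a subunit of the poly(A) nuclease that shortens messenger RNA tails, at nearly the same level in both). Each is the 250 bases before the RefSeq start, on GRCh38.p14, written 5′ to 3′ on the gene's strand, with TGGGAA or its reverse complement TTCCCA in capitals: chr13:41061387-41061636 on the minus strand, chr13:26557453-26557702 on the plus strand and chr13:28138295-28138544 on the plus strand.
ELF1: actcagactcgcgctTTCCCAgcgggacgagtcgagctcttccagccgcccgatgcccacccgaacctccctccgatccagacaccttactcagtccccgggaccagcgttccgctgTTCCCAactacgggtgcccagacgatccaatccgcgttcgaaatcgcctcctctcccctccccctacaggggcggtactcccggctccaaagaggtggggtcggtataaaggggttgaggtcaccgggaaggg
WASF3: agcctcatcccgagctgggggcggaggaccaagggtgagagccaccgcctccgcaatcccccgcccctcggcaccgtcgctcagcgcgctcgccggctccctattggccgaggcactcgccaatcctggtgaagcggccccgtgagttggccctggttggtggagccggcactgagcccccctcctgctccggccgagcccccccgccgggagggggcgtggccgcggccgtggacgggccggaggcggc
PAN3: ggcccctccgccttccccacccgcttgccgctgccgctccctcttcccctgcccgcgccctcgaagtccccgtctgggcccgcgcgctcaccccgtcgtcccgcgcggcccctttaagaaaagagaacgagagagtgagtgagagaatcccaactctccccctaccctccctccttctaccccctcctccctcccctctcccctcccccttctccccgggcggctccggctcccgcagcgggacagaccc
The ELF1 window held 2 matches to the core, and the WASF3 and PAN3 windows held 0. These windows are examples, and most members lower in KO held no core, unlike ELF1. Over windows of 300 bases (250 before the start and 50 after it, both strands searched), 24 of the 147 members with a RefSeq window held the core, or 16.3%. The share was 18.3% (19 of 104) for members lower in KO in both conditions and 11.6% (5 of 43) for the other members, beside 21.1% (1582 of 7483) for tested genes on other chromosomes and 24.0% for all RefSeq windows. A match to 6 letters is a description and says nothing of binding.

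Across the series, the reads assigned to genes, recovered from FPKM and gene length, came to 16342979 to 16913784 per library in 11 libraries and 22733932 in AraC-treated WT replicate 1. Of the B cell precursor markers, 6 of 9 were at 1 FPKM or more in every library, with CD79A, PAX5 and VPREB1 among them. RAG1 stayed at 0.0081 to 0.341 FPKM, RAG2 at 0.164 to 1.43 FPKM and DNTT at 0 to 2.52 FPKM. The summed level of the 9 markers was 492 to 507 FPKM in KO and 307 to 334 FPKM in WT libraries with AraC, and 707 to 722 FPKM in KO and 481 to 495 FPKM in WT libraries without it. T cell and erythroid markers summed to at most 0.082 FPKM in any library, and the 4 myeloid markers, with MPO and CD14 under 1 FPKM throughout, summed to 1.48 to 3.77 FPKM in KO and 2.86 to 7.16 FPKM in WT libraries. Of these, LYZ was at 0.143 to 4.44 FPKM and CSF1R at 0.900 to 2.63 FPKM. IKZF1 RNA itself, on chromosome 7, was at 14.2 to 15.0 FPKM in KO and 14.2 to 15.3 FPKM in WT libraries with AraC, and at 20.5 to 21.5 FPKM in KO and 22.1 to 22.6 FPKM in WT libraries without it. Since a small lesion in a gene need not lower its RNA, this level does not check the genotype labels. The part of marker levels in the values below was not tested.

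The members were mostly lower in the KO libraries over most of the chromosome, by amounts that varied from gene to gene. Their median KO minus WT difference was -0.43 on the log2(FPKM + 0.5) scale with AraC (25.7% lower) and -0.49 untreated (28.9% lower), while the 13075 tested genes on other chromosomes had a median of 0.01 in both comparisons. In bulk RNA, fewer cells of a type and less RNA per cell cannot be told apart. With AraC 140 of 223 members passed limma's test (Benjamini-Hochberg adjusted over all 13300 tested genes, threshold 0.05) as lower and 7 as higher, beside 14.8% and 15.4% of all tested genes called lower and higher. Untreated, 146 were called lower and 7 higher, beside 12.6% and 14.9% of all tested genes. In all, 130 members were called lower in both conditions, beside 7.92% of all tested genes. The 3 KO libraries all lay below the 3 WT libraries for 152 members with AraC and 158 untreated, beside 21.5% and 19.4% of all tested genes, and for 140 members in both conditions, beside 11.1%. Of the members, 9 reached the selection threshold of 1 FPKM in WT libraries alone and 4 in KO libraries alone, which favours a difference for them. Since the chromosome was chosen for these values, nothing is read from the counts.

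Every KO library showed the same displacement. Against the mean of the 3 WT libraries of the same treatment, the median over members was -0.44, -0.44 and -0.41 log2 in the AraC-treated KO libraries and -0.52, -0.46 and -0.47 log2 in the untreated KO libraries. The WT libraries lay between -0.01 and 0.02 log2 of their own mean. Members took 1.57% to 1.59% of all gene reads in KO and 2.00% to 2.08% in WT libraries with AraC, and 1.59% to 1.64% in KO and 2.14% to 2.16% in WT libraries without it. The ranges of the KO and WT libraries did not meet in either condition.

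**Figure D1:**
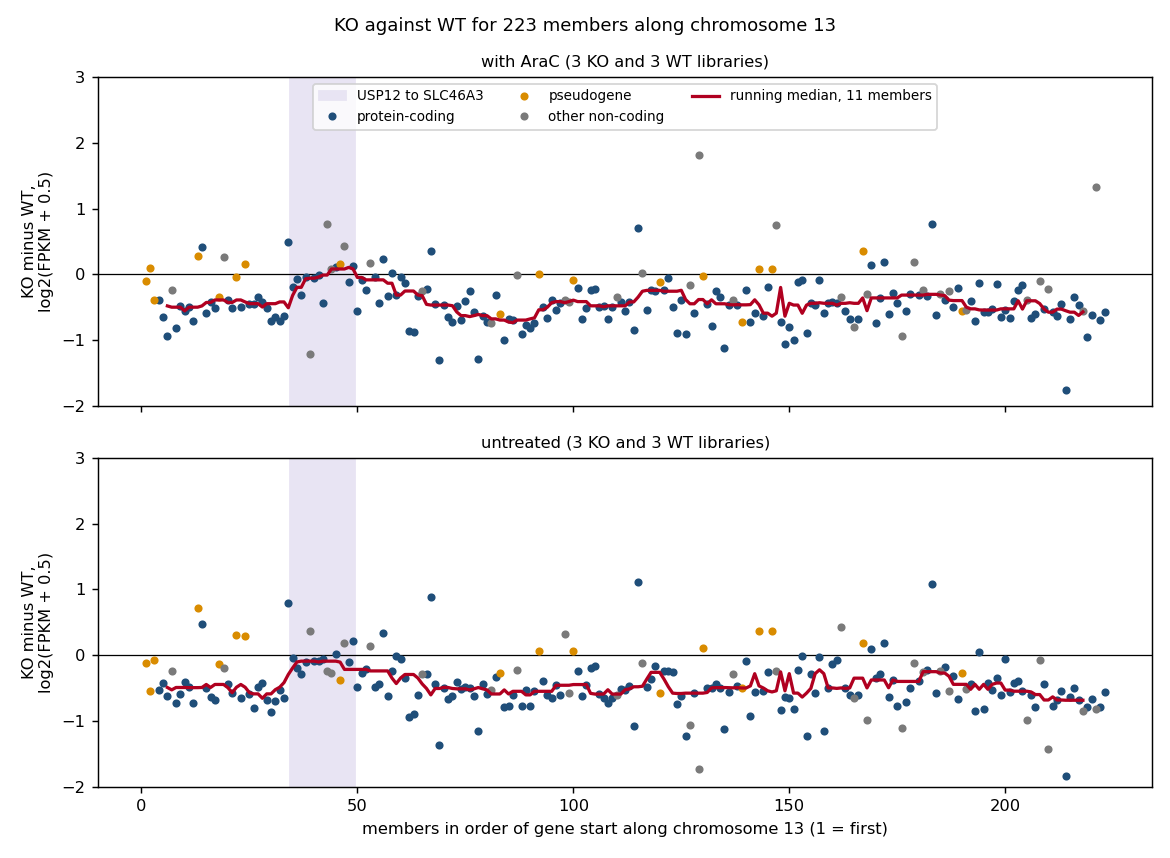
KO minus WT difference in log2(FPKM + 0.5) for the 223 members in order of gene start, with AraC above and untreated below; points are members by gene class, the line is the running median of 11 members, and shading marks USP12 to SLC46A3. The running median stays below 0 over most of the order and comes up to about 0 in the shaded stretch in both conditions.

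Along the chromosome the shift was present from end to end, with 1 interruption. In steps of 10 Mb the median was -0.39 log2 with AraC and -0.48 untreated for the 8 members between 10 and 20 Mb, and -0.55 with AraC and -0.65 untreated for the 24 members beyond 110 Mb, the lowest of the steps in both conditions. The 51 members between 40 and 50 Mb, the step that holds FOXO1, TPT1 and RB1, had medians of -0.49 with AraC and -0.53 untreated. The 2 gene-poor steps from 60 to 70 Mb and from 80 to 90 Mb held 2 members each and give no usable median. By level, the 29 members with a mean of at least 20 FPKM had medians of -0.32 with AraC and -0.48 untreated, the 88 members from 5 to 20 FPKM had -0.50 and -0.53, the 81 members from 1 to 5 FPKM had -0.39 and -0.49, and the 25 members under 1 FPKM had -0.14 and -0.34.

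The interruption lay between 27 and 29 Mb, a stretch chosen after its values were seen. Its 10 protein-coding members, from USP12 to SLC46A3, had a median of -0.06 log2 with AraC and -0.09 untreated. In each condition 2 of the 10 were called lower, beside 14.8% with AraC and 12.6% untreated of all tested genes. Before it, the 25 protein-coding members under 27 Mb had medians of -0.51 with AraC and -0.59 untreated, and after it the 12 members from 29 to 33 Mb had medians of -0.18 and -0.31. From 33 Mb to the end the 126 protein-coding members had medians of -0.50 and -0.54. GTF3A, the factor TFIIIA that starts transcription of 5S ribosomal RNA genes, was called lower in both conditions, at -0.32 and -0.29 log2 (AraC, then untreated). Its neighbours MTIF3 (mitochondrial translation initiation), LNX2 (a ubiquitin ligase) and POLR1D (a subunit of RNA polymerases I and III) differed by -0.04 and -0.10 log2, -0.06 and -0.09 log2 and -0.01 and -0.09 log2 in the same order.

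PAN3 stood out in that stretch by its level, which ranked 59 of the 13300 tested genes by mean FPKM. It was at 439, 435 and 438 FPKM in the AraC-treated KO libraries, against 425, 401 and 392 FPKM in the AraC-treated WT libraries. Untreated, it was at 529, 537 and 542 FPKM in KO and 537, 527 and 525 FPKM in WT libraries. The KO and WT libraries overlapped without AraC and separated with it, by 0.11 ± 0.04 log2, where PAN3 was called higher in KO; under quantile normalization that difference was -0.093, the opposite sign. RPL21, a protein of the large ribosomal subunit with many pseudogene copies that can share its reads, ranked 50 by mean FPKM and differed by -0.07 ± 0.06 log2 with AraC and -0.19 ± 0.06 log2 untreated. POMP, which helps assemble the proteasome, was at 88.8 to 106 FPKM in KO and 98.5 to 107 FPKM in WT libraries with AraC and at 117 to 123 FPKM in KO and 122 to 136 FPKM in WT libraries without it.

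**Figure D2:**
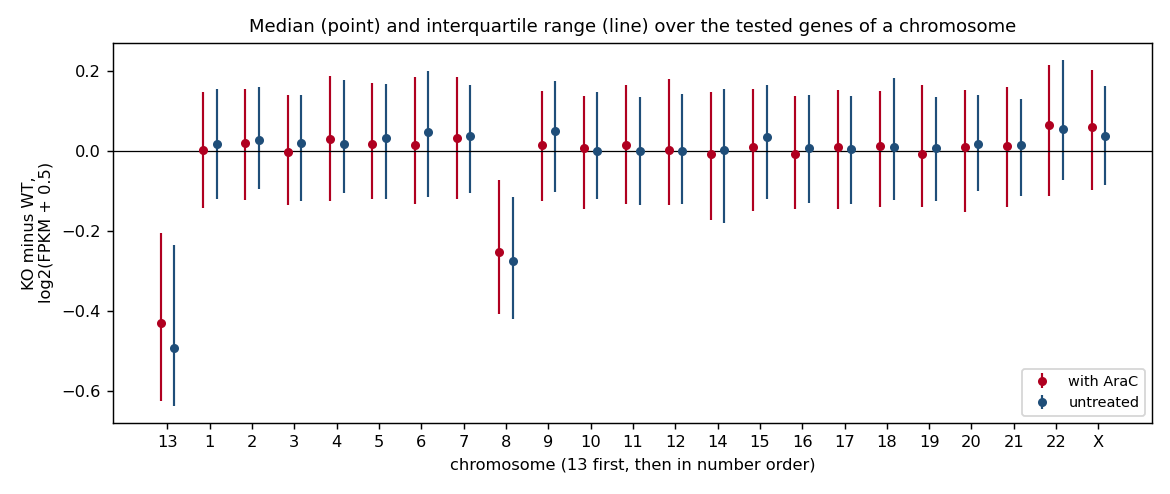
Median (points) and interquartile range (lines) of the KO minus WT difference in log2(FPKM + 0.5) over the tested genes of each chromosome, with AraC in red and untreated in blue. Chromosome 13, drawn at the left, has the lowest median in both conditions, chromosome 8 the next, and the other 21 lie between -0.01 and 0.07.

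Among the chromosomes, 8 came nearest to chromosome 13. Its 461 tested genes had a median KO minus WT difference of -0.25 with AraC and -0.28 untreated, about as uniform in sign (82.9% and 85.7% of genes below 0, beside 87.0% and 88.8% of chromosome 13 members). The other 21 chromosomes (1 to 22 and X) had medians between -0.01 and 0.07 with AraC and between -0.00 and 0.05 untreated. Over the whole chromosome, the 173 protein-coding members had an interquartile range of 0.35 log2 in both conditions. The 10259 protein-coding genes on other chromosomes had 0.27 with AraC and 0.25 untreated. The wider range pools stretches whose medians differ. Under 27 Mb, the quartiles of the 25 protein-coding members were -0.64 and -0.43 with AraC and -0.67 and -0.49 untreated. These lay closer together than the quartiles on other chromosomes, -0.14 and 0.14 with AraC and -0.11 and 0.14 untreated. From 33 Mb the 126 protein-coding members had -0.67 and -0.34 with AraC and -0.65 and -0.38 untreated, which lay further apart. With AraC 111 and untreated 112 of the 173 protein-coding members lay between -0.8 and -0.3.

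The difference varied with the class of gene, and the classes differed in level too. The median of the mean level was 6.50 FPKM for protein-coding members, 1.40 FPKM for pseudogenes and 1.38 FPKM for other non-coding members. The added 0.5 FPKM understates differences at low levels, and its part in these values was not tested. Protein-coding members had medians of -0.48 with AraC and -0.51 untreated, and 162 of 173 lay below 0 in each condition. The 18 pseudogenes had medians of -0.030 and -0.0034, with 10 of them below 0 with AraC and 9 untreated. Reads of a pseudogene can come from its parent gene on another chromosome, so these rows are uncertain. The 32 other non-coding members had medians of -0.24 and -0.27. Of these, 5 were called lower with AraC and 10 untreated, beside 14.8% and 12.6% of all tested genes. In all, 108 members overlap a gene on the other strand; the sources used here do not say whether the reads kept their strand, so reads of such pairs cannot be told apart.

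**Figure D3:**
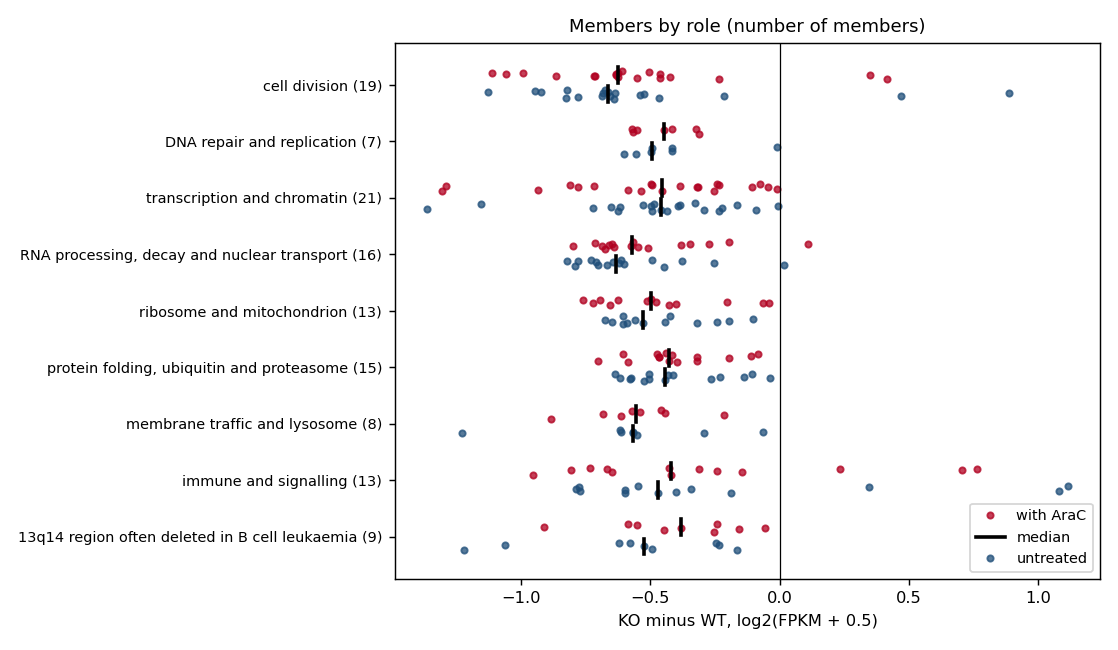
KO minus WT difference in log2(FPKM + 0.5) of the members in each of 9 role lists, with AraC (red) above untreated (blue); each point is a member, vertical ticks are medians and numbers in brackets are members. All 9 medians lie between -0.38 and -0.66, and points above 0 are mainly in the cell division and the immune and signalling lists.

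Members were grouped into 9 lists by their known roles, which together hold 115 members. In every list most members were lower in KO, which the choice of the chromosome had set in advance. Of all tested genes, 14.8% (AraC) and 12.6% (untreated) were called lower. Of all 223 members, 62.8% (AraC) and 65.5% (untreated) were. The counts of a list are to be read beside the shares of the members, and nothing is read from them about a role. The 19 cell division members had the lowest medians, -0.62 with AraC and -0.66 untreated, with 17 called lower and 1 higher in each condition. The 7 members of DNA repair and replication had medians of -0.45 and -0.49, with 7 called lower with AraC and 6 untreated.

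**Figure D4:**
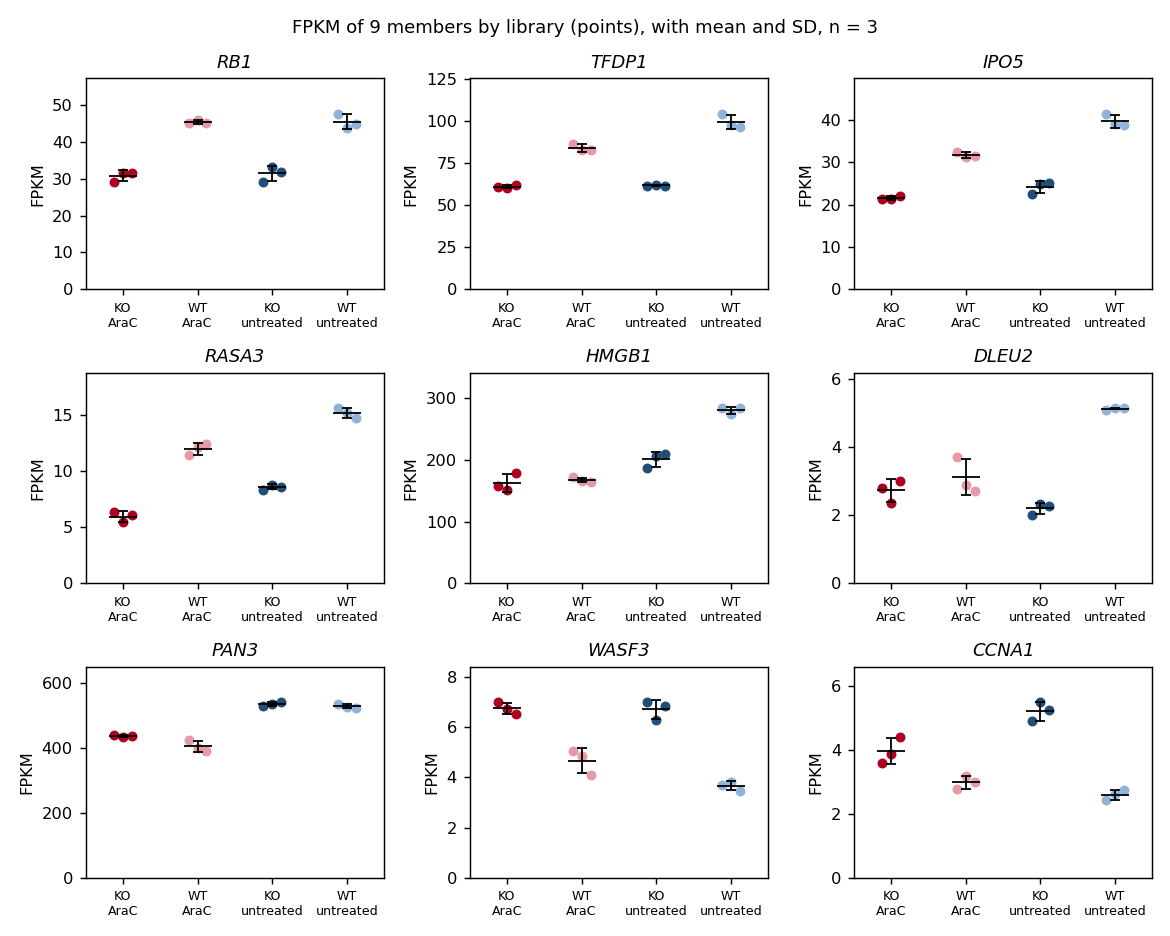
FPKM of 9 members in each library (points), with the mean and SD of the 3 libraries (bars), for KO and WT with AraC and KO and WT untreated; each axis starts at 0. RB1, TFDP1, IPO5 and RASA3 separate KO below WT in both conditions, HMGB1 and DLEU2 do so only without AraC, PAN3 is near equal, and WASF3 and CCNA1 lie above WT in KO.

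Among the cell division genes, RB1 was lower in every KO library than in any WT library. RB1 (chr13:48303726-48599436) was at 29.1, 31.6 and 31.7 FPKM in the AraC-treated KO libraries, against 44.98, 45.9 and 45.03 FPKM in the AraC-treated WT libraries. Untreated, it was at 29.1, 33.3 and 31.9 FPKM in KO and 47.6, 43.8 and 44.7 FPKM in WT libraries. The difference was -0.55 ± 0.05 log2 with AraC and -0.53 ± 0.05 log2 untreated, close to the median of the chromosome. TFDP1, the DP1 partner that E2F factors need to bind DNA, was at higher levels than RB1 and differed less than it with AraC and more untreated: 60.95 ± 0.917 FPKM in KO and 84.1 ± 2.12 FPKM in WT libraries with AraC (SD, n = 3) and 61.9 ± 0.401 FPKM in KO and 99.8 ± 4.21 FPKM in WT libraries untreated, or -0.46 ± 0.03 log2 with AraC and -0.68 ± 0.03 log2 untreated. PDS5B, which regulates cohesin on chromosomes, was at 6.31 to 6.58 FPKM in KO and 11.9 to 12.6 FPKM in WT libraries with AraC and at 6.56 to 6.58 FPKM in KO and 12.7 to 13.5 FPKM in WT libraries without it, a difference of -0.86 and -0.94 log2 in the same order. MZT1, a small subunit that helps recruit the microtubule-nucleating gamma-tubulin complex, and CKAP2, a spindle protein, differed by -0.72 and -0.83 log2 and by -0.46 and -0.47 log2. NEK3, a NIMA-related kinase, was the lowest of the list at -1.11 and -1.13 log2, from low levels of 0.141 to 0.268 FPKM in KO and 0.863 to 1.07 FPKM in WT libraries with AraC and 0.104 to 0.228 FPKM in KO and 0.911 to 1.02 FPKM in WT libraries without it.

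BRCA2 was at nearly the same level in KO and WT cells without AraC. It was at 12.2, 11.7 and 10.4 FPKM in the AraC-treated KO libraries, against 14.9, 14.1 and 14.001 FPKM in the AraC-treated WT libraries. In untreated cells the level was 9.67, 9.28 and 9.32 FPKM in KO and 9.66, 9.59 and 9.25 FPKM in WT libraries. The KO and WT libraries thus overlapped without AraC and separated with it, with differences of -0.31 ± 0.05 log2 with AraC and -0.01 ± 0.05 log2 untreated. The difference between its AraC effects in KO and WT, -0.30 ± 0.08 log2 (adjusted p = 0.0667), did not pass limma's interaction test. RFC3, a subunit of the clamp loader that sets PCNA on DNA, was lower in KO in both conditions, at 39.6 to 41.5 FPKM in KO and 48.6 to 54.04 FPKM in WT libraries with AraC and at 32.97 to 35.8 FPKM in KO and 50.3 to 54.2 FPKM in WT libraries without it. LIG4, the ligase that seals breaks in end joining and V(D)J recombination, was at 2.77 to 3.44 FPKM in KO and 4.67 to 4.72 FPKM in WT libraries with AraC and at 2.86 to 3.32 FPKM in KO and 4.22 to 4.57 FPKM in WT libraries without it, or -0.57 and -0.42 log2. PARP4, a member of the poly(ADP-ribose) polymerase family, and RNF219, a ubiquitin ligase acting at replication origins, differed by -0.42 and -0.42 log2 and -0.55 and -0.50 log2.

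The 21 transcription and chromatin members had medians of -0.45 with AraC and -0.46 untreated, and all 21 lay below 0 in both conditions, with 16 and 17 called lower. ELF1 was at 70.7 to 74.4 FPKM in KO and 87.5 to 91.3 FPKM in WT libraries with AraC and at 95.6 to 103 FPKM in KO and 123 to 129 FPKM in WT libraries without it, or -0.32 and -0.33 log2. SAP18, a subunit of Sin3 histone deacetylase complexes, differed by -0.58 and -0.49 log2. FOXO1 was low in both lines and lower in KO, with 23 to 58 reads in KO and 142 to 203 reads in WT libraries. It was at 0.258, 0.215 and 0.271 FPKM in the AraC-treated KO libraries, against 1.34, 1.36 and 1.29 FPKM in the AraC-treated WT libraries. Without AraC it had 0.254, 0.469 and 0.589 FPKM in KO and 1.52, 1.64 and 1.54 FPKM in WT libraries. The differences were -1.29 ± 0.15 log2 with AraC and -1.15 ± 0.15 log2 untreated, and the fold is understated at such levels because of the added 0.5 FPKM. SMAD9, a receptor-activated SMAD of BMP signalling, was at 1.72, 2.20 and 1.91 FPKM in the AraC-treated KO libraries, against 5.74, 5.47 and 5.35 FPKM in the AraC-treated WT libraries. Without AraC it had 0.641, 0.988 and 0.807 FPKM in KO and 2.71, 2.92 and 2.94 FPKM in WT libraries, and the groups did not overlap in either condition (-1.30 ± 0.10 log2 with AraC and -1.36 ± 0.10 log2 untreated).

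The 16 members of RNA processing, decay and nuclear transport had medians of -0.57 with AraC and -0.63 untreated, with 12 and 13 called lower. IPO5, an importin that carries ribosomal proteins and histones into the nucleus, was at 21.3 to 21.98 FPKM in KO and 31.3 to 32.5 FPKM in WT libraries with AraC and at 22.4 to 25.04 FPKM in KO and 38.8 to 41.5 FPKM in WT libraries without it. ARGLU1, a splicing regulator and coactivator, differed by -0.57 and -0.82 log2, and KPNA3, an importin alpha, by -0.38 and -0.62 log2. The 13 members of the ribosome and mitochondrion list had medians of -0.50 and -0.53, with 10 called lower in each condition. TPT1, the abundant translationally controlled tumour protein, was at 171 to 214 FPKM in KO and 249 to 263 FPKM in WT libraries with AraC and at 188 to 201 FPKM in KO and 289.6 to 304 FPKM in WT libraries without it. Its antisense row AL138963.3, whose reads cannot be told apart from TPT1, differed by nearly the same amount, -0.41 and -0.58 log2 beside -0.43 and -0.60 log2 for TPT1. MRPL57, a mitochondrial ribosomal protein, differed by -0.51 and -0.67 log2.

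The 15 members of protein folding, ubiquitin and proteasome had medians of -0.43 with AraC and -0.44 untreated, with 13 and 12 called lower. USP12, a deubiquitinase, lies in the stretch described above and differed by -0.20 and -0.04 log2. TPP2, a large cytosolic peptidase, was at 14.02 to 14.5 FPKM in KO and 18.4 to 19.3 FPKM in WT libraries with AraC and at 16.6 to 19.3 FPKM in KO and 24.5 to 25.2 FPKM in WT libraries without it. The 8 members of membrane traffic and lysosome had medians of -0.55 and -0.57, with 8 called lower with AraC and 7 untreated. LAMP1, a lysosomal membrane glycoprotein, was at 11.8 to 12.8 FPKM in KO and 15.7 to 19.3 FPKM in WT libraries with AraC and at 11.98 to 12.96 FPKM in KO and 18.1 to 19.2 FPKM in WT libraries without it. TM9SF2 (a Golgi and endosome protein), VPS36 (an ESCRT-II subunit) and SPART (an endosomal protein mutated in Troyer syndrome) differed by -0.61 and -0.57 log2, -0.46 and -0.57 log2 and -0.21 and -0.29 log2. TBC1D4, a Rab GTPase-activating protein of glucose transporter traffic, was the lowest of the list at -0.88 and -1.23 log2.

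The 13 immune and signalling members were the most mixed in sign, with medians of -0.42 with AraC and -0.47 untreated. In each condition 9 were called lower, and 2 were called higher with AraC and 3 untreated. Of all tested genes, 15.4% were called higher with AraC and 14.9% untreated, so nothing is read from these higher calls. RASA3, a GTPase-activating protein for RAS and RAP1, was at 6.36, 5.47 and 6.12 FPKM in the AraC-treated KO libraries, against 11.5, 12.2 and 12.5 FPKM in the AraC-treated WT libraries. Untreated, it was at 8.38, 8.82 and 8.66 FPKM in KO and 15.7, 15.2 and 14.8 FPKM in WT libraries. Its differences were -0.95 ± 0.05 log2 with AraC and -0.79 ± 0.05 log2 untreated, larger than the median of the chromosome in both conditions. LCP1, the leukocyte actin-bundling protein, was the most abundant of the list and differed less, by -0.24 ± 0.04 log2 with AraC and -0.19 ± 0.04 log2 untreated. RAP2A (a RAS-like GTPase), LPAR6 (a lysophosphatidic acid receptor) and IRS2 (an adaptor of insulin and cytokine receptors) differed by -0.43 and -0.77 log2, -0.42 and -0.47 log2 and -0.65 and -0.60 log2. GPR18 and CYSLTR2, both G protein-coupled receptors of leukocytes, were called higher in KO in both conditions, both from low levels. Both reached 1 FPKM in KO libraries alone, so they were selected through the group in which they are high. GPR18 was at 1.29 to 1.86 FPKM in KO and 0.581 to 0.798 FPKM in WT libraries with AraC and at 0.696 to 1.43 FPKM in KO and 0.199 to 0.304 FPKM in WT libraries without it. CYSLTR2 was at 1.22 to 1.70 FPKM in KO and 0.599 to 0.749 FPKM in WT libraries with AraC and at 1.14 to 1.40 FPKM in KO and 0.276 to 0.356 FPKM in WT libraries without it.

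The 9 members of the 13q14 list had medians of -0.38 with AraC and -0.53 untreated, with 6 called lower with AraC and 8 untreated. SPRYD7 was the lowest, at 2.48 to 3.31 FPKM in KO and 5.85 to 6.05 FPKM in WT libraries with AraC and at 2.25 to 3.54 FPKM in KO and 7.0003 to 7.60 FPKM in WT libraries without it, or -0.91 and -1.22 log2. TRIM13, a ubiquitin ligase at the endoplasmic reticulum that overlaps DLEU2 on the other strand, differed by -0.58 and -0.58 log2, and PHF11 and RCBTB1 by -0.24 and -0.24 log2 and -0.06 and -0.24 log2. DLEU1, the other long non-coding gene of the band, was not a member, at no more than 0.14 FPKM in any library.

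Members far below the rest of the chromosome were few. Lower by at least 2-fold and past the test were 6 members with AraC and 11 untreated, beside 0.962% and 1.21% of all tested genes, and 4 were at least 2-fold lower in both: ADPRHL1, SMAD9, FOXO1 and NEK3, all under 6 FPKM. ADPRHL1, FOXO1 and NEK3 are among the 9 members that reached 1 FPKM in WT libraries alone, so they were selected through the group in which they are high. ADPRHL1, an ADP-ribosylhydrolase-like gene known from heart muscle, had the lowest difference of the chromosome. It was at 0.2205, 0.219 and 0.187 FPKM in the AraC-treated KO libraries, against 1.92, 1.83 and 1.94 FPKM in the AraC-treated WT libraries. The untreated cells had 0.266, 0.291 and 0.1795 FPKM in KO and 2.18, 2.14 and 2.18 FPKM in WT libraries. Of members with at least 5 FPKM in 1 group, RCBTB2 (a chromatin condensation regulator family member), KCTD12 (an auxiliary subunit of GABA-B receptors) and WBP4 (a spliceosome protein) were among the lowest, at -0.84 and -1.07 log2, -0.59 and -1.16 log2 and -1.001 and -0.79 log2.

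Members higher in KO numbered 10 over the 2 conditions, 4 of them called in both (beside 9% of all tested genes): WASF3, CCNA1, CYSLTR2 and GPR18. CYSLTR2 and GPR18 reached 1 FPKM in KO libraries alone. WASF3 (chr13:26557703-26688948) was at 6.99, 6.73 and 6.53 FPKM in the AraC-treated KO libraries, against 5.04, 4.83 and 4.10 FPKM in the AraC-treated WT libraries. In untreated cells it had 6.998, 6.27 and 6.84 FPKM in KO and 3.69, 3.81 and 3.46 FPKM in WT libraries. The groups did not overlap in either condition (0.50 ± 0.07 log2 with AraC and 0.79 ± 0.07 log2 untreated), and WASF3 starts just before the 27 Mb mark. CCNA1, the germline and leukaemia form of cyclin A, was at 3.95 ± 0.408 FPKM in KO and 2.99 ± 0.205 FPKM in WT libraries with AraC and 5.21 ± 0.297 FPKM in KO and 2.59 ± 0.162 FPKM in WT libraries untreated (SD, n = 3). ALOX5AP, the protein that presents arachidonic acid to 5-lipoxygenase for leukotriene synthesis, was at 6.82 to 8.46 FPKM in KO and 5.86 to 6.51 FPKM in WT libraries with AraC and at 3.94 to 4.32 FPKM in KO and 2.84 to 3.42 FPKM in WT libraries without it, and was called higher only untreated. The other called rows were the pseudogenes PTMAP5, HNRNPA3P5 and RPSAP54, the short row RF02109 and PAN3. Of these, RPSAP54 reached 1 FPKM in KO libraries alone, so it too was selected through the group in which it is high. SLC46A3, a lysosomal transporter, LINC00426 and RPL13AP25 differed by 0.13 and 0.22 log2, 0.17 and 0.14 log2 and 0.09 and 0.37 log2 and were not called.

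**Figure D5:**
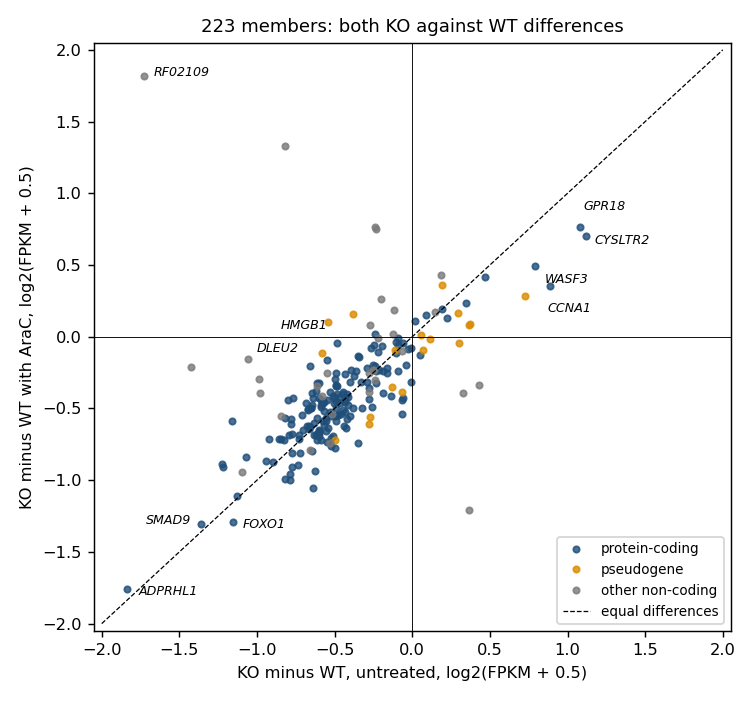
KO minus WT difference in log2(FPKM + 0.5) untreated (x axis) against the same with AraC (y axis) for each of the 223 members, by gene class; the dashed line marks equal differences. Most protein-coding members lie near the dashed line below 0 on both axes, and RF02109, at 0 to 3 reads per library, lies far from it.

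The 2 KO against WT differences, which share no library, ordered the members alike. Across the 173 protein-coding members, which are not independent of each other, Pearson's r was 0.88 and Spearman's rho 0.79. Over all 223 members r was 0.55 and rho 0.69, and over the 13075 tested genes elsewhere they were 0.64 and 0.55. Both differences contain the difference between the 1 KO line and the WT cells.

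AraC itself changed members in both directions without moving the chromosome as a whole. In KO cells 45 members fell and 31 rose (limma, Benjamini-Hochberg over all tested genes), beside 24.7% and 19.8% of all tested genes, and the median was -0.03 log2. In WT cells 55 fell and 35 rose, beside 25.6% and 24.1% of all tested genes, with a median of -0.04 log2. Of the members, 20.2% fell and 13.9% rose in KO, and 24.7% fell and 15.7% rose in WT, each share below that of all tested genes. The split depends on the scaling: with TPM, 28 fell and 58 rose in KO cells and 33 fell and 78 rose in WT cells, beside 13.2% and 30.5% of all tested genes in KO and 12.5% and 41.6% in WT. With TPM the members' share that fell in WT, 14.8%, was above that of all tested genes, and the other 3 shares were below it. Under that scaling the median of the genes on other chromosomes was 0.10 in KO and 0.16 in WT cells, beside -0.03 and -0.01 with the deposited scaling. In both lines 53 members were called (23.8%, beside 34.4% of all tested genes), and 52 of them went in the same direction (98.1%, beside 98.8% of the 4574 tested genes called in both).

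Several members rose with AraC in both. ALOX5AP was at 6.82, 6.83 and 8.46 FPKM with AraC, against 4.13, 3.94 and 4.32 FPKM untreated in KO cells, and at 6.12, 6.51 and 5.86 FPKM with AraC, against 3.19, 2.84 and 3.42 FPKM untreated in WT cells. The AraC effects were 0.76 ± 0.09 log2 (adjusted p = 4.08e-05) in KO and 0.87 ± 0.09 log2 (adjusted p = 1.23e-05) in WT (limma). SMAD9 rose by 0.90 ± 0.10 log2 (adjusted p = 4.01e-05) in KO and 0.84 ± 0.10 log2 (adjusted p = 5.27e-05) in WT, so its AraC response was present in the KO cells at the lower level. BRCA2 rose by 0.27 ± 0.05 log2 (adjusted p = 0.00212) in KO and 0.57 ± 0.05 log2 (adjusted p = 9.13e-06) in WT (limma). TEX30 rose by 0.54 ± 0.06 log2 (adjusted p = 3.49e-05) in KO and 0.41 ± 0.06 log2 (adjusted p = 0.000212) in WT. KATNAL1, a katanin-like microtubule-severing protein, rose by 0.50 ± 0.07 log2 (adjusted p = 0.000138) in KO and 0.52 ± 0.07 log2 (adjusted p = 8.79e-05) in WT. ZMYM5, a zinc finger protein, rose by 0.49 ± 0.09 log2 (adjusted p = 0.00137) in KO and 0.81 ± 0.09 log2 (adjusted p = 3.74e-05) in WT, and B3GLCT, a glucosyltransferase of O-fucosylated proteins, by 0.66 ± 0.09 log2 (adjusted p = 0.000202) in KO and 0.40 ± 0.09 log2 (adjusted p = 0.00426) in WT. KLF5, a zinc finger transcription factor named after its values were seen, was at 1.34, 1.45 and 1.35 FPKM with AraC, against 0.293, 0.3504 and 0.455 FPKM untreated in KO cells and at 1.53, 1.30 and 1.76 FPKM with AraC, against 0.612, 0.341 and 0.5899 FPKM untreated in WT cells; it reached 1 FPKM in AraC libraries alone, so it was selected through the group in which it is high and its rise is given with no test.

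Other members fell with AraC. EBPL, related to the sterol isomerase EBP, was at 10.7, 9.90 and 8.87 FPKM with AraC, against 15.9, 18.2 and 15.7 FPKM untreated in KO cells, an effect of -0.73 ± 0.08 log2 (adjusted p = 3.11e-05), and its effect in WT was -0.57 ± 0.08 log2 (adjusted p = 0.000142). HSPH1, a chaperone of the HSP110 family, was at 44.3, 43.5 and 43.3 FPKM with AraC, against 73.1, 75.3 and 72.6 FPKM untreated in WT cells, an effect of -0.75 ± 0.04 log2 (adjusted p = 1.40e-07), and GTF3A fell, at -0.46 ± 0.05 log2 (adjusted p = 2.47e-05) in KO and -0.43 ± 0.05 log2 (adjusted p = 2.86e-05) in WT (limma). PAN3-AS1, which starts head to head with PAN3 on the other strand, fell, at -0.70 ± 0.12 log2 (adjusted p = 0.000698) in KO and -1.06 ± 0.12 log2 (adjusted p = 3.18e-05) in WT. MIR17HG was low throughout, at 1.07, 0.584 and 0.638 FPKM with AraC, against 1.32, 1.08 and 1.07 FPKM untreated in KO and 1.19, 1.15 and 0.7798 FPKM with AraC, against 2.86, 2.68 and 2.78 FPKM untreated in WT cells. It fell in WT, at -1.10 ± 0.16 log2 (adjusted p = 0.000167), and the KO effect of -0.41 ± 0.16 log2 (adjusted p = 0.0555) did not pass the test; the difference between the effects, 0.69 ± 0.22 log2 (adjusted p = 0.1301), did not pass either. The pseudogene PTMAP5 fell, at -0.65 ± 0.11 log2 (adjusted p = 0.000567) in KO and -0.82 ± 0.11 log2 (adjusted p = 9.22e-05) in WT, and RPL13AP25 fell, at -0.77 ± 0.20 log2 (adjusted p = 0.00849) in KO with an effect of -0.48 ± 0.20 log2 (adjusted p = 0.06303) in WT, with the doubt about their reads given above. RNU6-63P rose in WT by 2.03 ± 0.45 log2 (adjusted p = 0.00301), beside an effect of 0.45 ± 0.45 log2 (adjusted p = 0.446) in KO, on 1 to 12 reads per library.

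The AraC effect differed between KO and WT for 9 members, 6 with a higher and 3 with a lower effect in KO, beside 0.887% and 1.8% of all tested genes (limma interaction). DLEU2 (chr13:49982552-50125720, minus strand) was at 2.81, 2.36 and 3.01 FPKM with AraC, against 2.02, 2.32 and 2.27 FPKM untreated in KO cells. In WT cells it was at 3.71, 2.90 and 2.72 FPKM with AraC, against 5.10, 5.13 and 5.15 FPKM untreated. It thus fell with AraC in WT, at -0.65 ± 0.10 log2 (adjusted p = 0.000376), and the effect in KO was 0.25 ± 0.10 log2 (adjusted p = 0.0715), so that the KO and WT libraries lay apart untreated and overlapped with AraC. The difference between the effects was 0.90 ± 0.15 log2 (adjusted p = 0.0139). Since TRIM13 overlaps DLEU2 on the other strand, reads of the 2 genes cannot be told apart where they overlap. HMGB1, an abundant chromatin protein that bends DNA, was at 158, 152 and 179 FPKM with AraC, against 187, 206 and 209.7 FPKM untreated in KO cells. In WT cells it was at 172, 166 and 165 FPKM with AraC, against 285, 275 and 284 FPKM untreated, and the difference between the effects was 0.44 ± 0.08 log2 (adjusted p = 0.0246). It fell in both, and more in WT.

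KCTD12 fell in WT, at -0.45 ± 0.07 log2 (adjusted p = 0.000508), while its KO effect was 0.12 ± 0.07 log2 (adjusted p = 0.207); the difference was 0.57 ± 0.11 log2 (adjusted p = 0.0213). HSPH1 fell in both lines, at -0.45 ± 0.04 log2 (adjusted p = 4.91e-06) in KO and more in WT, with a difference of 0.29 ± 0.05 log2 (adjusted p = 0.0202). TFDP1 fell in WT, at -0.24 ± 0.03 log2 (adjusted p = 0.0001600) and had an effect of -0.02 ± 0.03 log2 (adjusted p = 0.658) in KO, a difference of 0.22 ± 0.05 log2 (adjusted p = 0.0393). In the other direction, CCNA1 fell in KO, at -0.36 ± 0.08 log2 (adjusted p = 0.00318) and had an effect of 0.18 ± 0.08 log2 (adjusted p = 0.0875) in WT, a difference of -0.54 ± 0.11 log2 (adjusted p = 0.0315). BORA, an activator of Aurora A and PLK1 at mitotic entry, fell in KO, at -0.55 ± 0.06 log2 (adjusted p = 4.61e-05) and had an effect of -0.13 ± 0.06 log2 (adjusted p = 0.124) in WT, a difference of -0.42 ± 0.09 log2 (adjusted p = 0.0342). SLAIN1, a microtubule growth factor, rose in WT by 0.27 ± 0.05 log2 (adjusted p = 0.000734) and had an effect of -0.11 ± 0.05 log2 (adjusted p = 0.0971) in KO, a difference of -0.37 ± 0.07 log2 (adjusted p = 0.0196). The ninth, RF02109, rests on 0 to 3 reads per library in a row of 84 bases and gives no usable fold. DLEU2 kept the call in all 26 alternatives run for it. RF02109 kept it in the 25 run for it, at 2.45 to 6.46 log2, which says little of a row with so few reads. The other 7 lost it in 2 to 16 of the 26 or 27 alternatives run for each.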

How the data were processed

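The authors deposited 1 table of FPKM per gene for all 12 libraries, with gene length. Per the submitters' processing notes, fastp, HISAT2 2.0.5 and featureCounts 1.5.0-p3 were used with GRCh38; the sources used here do not give settings, strandedness or library type. FPKM times length returned whole reads (100% of values within 0.001), and the deposited scaling followed median-of-ratios factors. Genes with at least 1 FPKM in at least 3 libraries (13300) were fitted on log2(FPKM + 0.5) in 1 limma model (3.58.1, R 4.3.3) over all 12 libraries, with a variance trend, 8 residual degrees of freedom, two-sided tests and Benjamini-Hochberg adjustment over all tested genes of a comparison at 0.05. Log2 differences are given with their standard errors; they understate changes of low genes. The procedure was tested on simulated data.

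The comparisons were KO against WT with and without AraC, AraC against untreated in KO and in WT, and their interaction. The members and lists were chosen with earlier results of these data known. Members were named by level (12 highest), by KO minus WT difference (8 lowest and 8 highest among members with at least 5 FPKM in a group), by role list (up to 4), by interaction (up to 6), by AraC effect (4 each way per line) and from a list of genes often studied; others named say so or are in a role list or a stretch described as a whole. Replicate numbers gave no pairing. Sequences and windows are RefSeq's, GRCh38.p14, matched for 147 of 223 members by a start within 1000 bases. Alternatives were other pseudocounts, filters, scalings and variance models, limma-voom on recovered reads, a replicate block and leaving out each library. In the B cell precursor marker list, 1 gene is not reported here and is left out of its count and sum.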

Additional observations from a re-analysis of the deposited data

Results flagged for a closer look

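The members below had an AraC effect that differed between KO and WT cells in limma's interaction test, with adjustment over all 13300 tested genes. As values of the KO effect minus the WT effect, DLEU2 had 0.90 ± 0.15 log2 (adjusted p = 0.0139), KCTD12 0.57 ± 0.11 log2 (adjusted p = 0.0213), HMGB1 0.44 ± 0.08 log2 (adjusted p = 0.0246), HSPH1 0.29 ± 0.05 log2 (adjusted p = 0.0202) and TFDP1 0.22 ± 0.05 log2 (adjusted p = 0.0393). With the lower effect in KO, CCNA1 had -0.54 ± 0.11 log2 (adjusted p = 0.0315), BORA -0.42 ± 0.09 log2 (adjusted p = 0.0342) and SLAIN1 -0.37 ± 0.07 log2 (adjusted p = 0.0196). Where DLEU2 overlaps TRIM13 on the other strand, their reads cannot be told apart. RF02109, a misc_RNA row of 84 bases inside the DLEU2 gene on its other strand, had 3.54 ± 0.57 log2 (adjusted p = 0.0137), from 3, 2 and 3 reads in AraC-treated KO, 0, 1 and 0 in AraC-treated WT, 1, 0 and 0 in untreated KO and 2, 2 and 3 in untreated WT libraries.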

How the results depend on the processing

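Of the named genes and counts, 1 value changed sign while called: PAN3 in KO against WT with AraC, at -0.093 log2 under quantile normalization, against 0.11. The median over members in KO against WT with AraC was -0.47 with a pseudocount of 0.1, -0.40 with 1, -0.31 with a filter at 0.1 FPKM, -0.48 at 5 FPKM, -0.12 with no filter, -0.50 with TPM, -0.48 with plain read totals, -0.48 with limma-voom and -0.48 for protein-coding genes only. Untreated it was -0.43 with a pseudocount of 1, -0.29 with the filter at 0.1 FPKM and -0.13 with none; members lower stayed within 1.5 times of the reported counts in all of these. At a filter of 5 FPKM, 3 members were higher in each KO against WT comparison, and 20 rose with AraC in KO. The AraC median in WT was -0.011 with the filter at 0.1 FPKM, -0.091 at 5 FPKM, 0.00 with no filter and -0.089 when centred on the genes not on chromosome 13. With TPM, AraC gave 28 lower and 58 higher members and a median of 0.092 in KO, 33 lower, 78 higher and 0.12 in WT, and an interaction median of -0.037; with plain read totals, 29 lower, 54 higher and 0.084 in KO, and 73 higher and 0.090 in WT. Members called lower in the interaction numbered 1 with the filter at 0.1 FPKM and 1 with none, and limma-voom called 5 lower and 12 higher.

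Leaving out each library in turn gave KO against WT counts of 132 to 142 lower and 4 to 7 higher with AraC and 138 to 149 lower and 6 to 8 higher untreated, with medians of -0.45 to -0.41 and -0.51 to -0.47. AraC counts were 38 to 51 lower and 25 to 32 higher in KO (median -0.06 to -0.01) and 47 to 58 lower and 29 to 37 higher in WT (median -0.06 to -0.03). Interaction counts were 0 to 3 lower and 2 to 7 higher (median -0.02 to 0.03), the lowest without untreated WT replicate 3 and without AraC-treated WT replicate 2. Replicate numbers did not pair the libraries (correlations of same-numbered deviations from -0.050 to 0.115, and 4 of 12 libraries nearest their own number). A replicate block gave 141 and 142 members lower in KO against WT with and without AraC, and its interaction calls were 2 lower and 5 higher. Steps of 5 Mb kept every median with at least 3 members below 0. Rows of a few reads, such as RF02109 and RNU6-63P, are limited by depth.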
